A study of Homo sapiens with 17 samples.

Results

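The 6 ribosomal protein paralogs RPL22L1, RPL26L1, RPL36AL, RPL39L, RPL7L1 and RPS27L were followed by name, each beside the core gene it resembles (RPL22, RPL26, RPL36A, RPL39, RPL7 and RPS27). They were 6 of 15661 genes counted at least once at 36 h and of 17023 at 72 h, and all 6 had enough reads to be tested at both times. The libraries came from HEK293 cells, a human embryonic kidney line that expresses adenoviral proteins known to restrain p53, after electroporation of a ribonucleoprotein with the sgIntron guide against a JAK2 intron. The nuclease was either Cas9, which cuts DNA, or dCas9, which binds without cutting and served as control, and cells were lysed 36 or 72 h later. Ribosome footprints and mRNA were sequenced in 17 libraries. At 36 h there were 2 Cas9 and 2 dCas9 footprint libraries, 3 Cas9 mRNA libraries and 2 dCas9 mRNA libraries, and at 72 h each of the 4 groups had 2. Per the methods a replicate pooled several electroporations on a plate, and guides were synthetic at 36 h and transcribed in vitro at 72 h.

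A ribosome carries a copy of each core ribosomal protein, and for some of these proteins the human genome also encodes a near relative from a separate gene. Such paralogs can take the place of the core protein in some tissues or act outside the ribosome. Core ribosomal protein mRNAs commonly begin with a run of pyrimidines, the 5′ terminal oligopyrimidine motif, through which their translation follows growth signals.

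The large subunit paralogs differ in how far they have drifted from the core gene. RPL22L1 lies at chr3:170864875-170870208 (hg38, minus strand, 4 coding exons), and its reading frame was 68.6% identical in bases to that of RPL22, an RNA-binding protein known to restrain RPL22L1 expression. RPL26L1 at chr5:172958729-172969771 was 84.1% identical to RPL26, which is also known for binding p53 mRNA. RPL36AL at chr14:49618530-49620626 and RPL39L at chr3:187120948-187180908 have a single coding exon each and were 89.9% and 94.8% identical to RPL36A and to RPL39, whose protein lines the exit tunnel. RPL39L is best known from testis. RPL7L1 at chr6:42879616-42889925 was 56.2% identical to RPL7 and resembles Rlp7, an assembly factor of the yeast large subunit. In the small subunit, RPS27L at chr15:63125872-63158021, a known p53 target, was 77.8% identical to RPS27.

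How well reads tell a paralog from its core gene was read from the coding sequences, and the pairs that bear on the results are shown over the 60 bases in which they are most alike. Capitals mark the bases that differ, and positions count from the first base of the start codon.
RPL39L, bases 1 to 60: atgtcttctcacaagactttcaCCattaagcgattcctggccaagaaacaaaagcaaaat
RPL39, bases 1 to 60: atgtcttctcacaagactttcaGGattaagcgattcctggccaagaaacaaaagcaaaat
RPL36AL, bases 259 to 318: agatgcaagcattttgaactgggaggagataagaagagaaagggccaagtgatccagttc
RPL36A, bases 259 to 318: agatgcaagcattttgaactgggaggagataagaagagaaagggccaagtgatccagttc
RPL26L1, bases 274 to 333: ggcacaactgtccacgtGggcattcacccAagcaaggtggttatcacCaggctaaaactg
RPL26, bases 274 to 333: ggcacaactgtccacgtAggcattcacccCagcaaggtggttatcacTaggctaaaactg
The last 60 bases of RPL36AL and RPL36A were identical, whereas RPL39L and RPL39 differed by 2 of 60 bases and RPL26L1 and RPL26 by 3.
Of all 30-base windows of the reading frame, about the length of a footprint, 15 of 124 (12.1%) in RPL39L and 31 of 289 (10.7%) in RPL36AL also occurred in the core gene. At 50 bases, the length of the reads, RPL39L shared none with RPL39 and RPL36AL shared 11 of 269 (4.09%) with RPL36A. The other 4 paralogs shared no window of either length with their core gene. The core genes have many processed copies: 100% of the 30-base windows of RPL36A, RPL39, RPL7 and RPS27 recurred in other annotated genes. Among the paralogs the share was 11.7% for RPS27L, 17.5% for RPL22L1, 21.8% for RPL39L, 69.6% for RPL36AL, 75.6% for RPL26L1 and 81.7% for RPL7L1. How the aligners placed a read that fits several genes was not tested, so every paralog to core ratio carries an error that the counts do not show.

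The first transcribed bases also separated most of the paralogs from the core genes. They are shown for 3 pairs as 25 bases around the RefSeq start (GRCh38.p14), with the first 5 transcribed bases in capitals.
RPL22L1, chr3:170870181-170870205, minus strand: ccgtagcttcCTCTCtgctctcgcg
RPL22, chr1:6199581-6199605, minus strand: cgctcacctcCCTTTctaactccgc
RPL26L1, chr5:172958719-172958743, plus strand: tccaggggtcGGCGAacgaaacgcg
RPL26, chr17:8383179-8383203, minus strand: gcgtgtagttCTCTTcccttttgcg
RPS27L, chr15:63157463-63157487, minus strand: gatgccgagcGCAGAtcgcttgcag
RPS27, chr1:153990752-153990776, plus strand: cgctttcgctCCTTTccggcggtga
A start on C followed by 4 bases that are C or T was present at the annotated start of 43 of 63 core ribosomal protein genes with an entry (68.3%) and of 1104 of 27305 genes in all (4.04%). It was present in all 5 core partners with an entry (RPL22, RPL26, RPL36A, RPL39 and RPS27). Among the 5 paralogs with an entry, only RPL22L1 had it. RPL36AL had such a run within 5 bases before to 10 bases after the annotated start, a placement found in 21.1% of all genes. A match describes these letters at an annotated start and was not tested as a site.

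Depth set the precision of the footprint values. Depth is given as the reads counted in the transcript kept for each gene. Footprint libraries had 689723 to 4869519 such reads at 36 h and 3183979 to 8865867 at 72 h. The mRNA libraries had 25119873 to 33381547 and 33076158 to 42863812. The shallowest footprint libraries were Cas9 replicate a and dCas9 replicate e at 36 h, and each had a count of 0 for 1 paralog. Values that compare genes are CPM per kb: counts were scaled to a common library size (CPM, with TMM factors that correct for genes taking a large share of a library) and divided by the length of the coding part in which reads were counted.

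RPL36AL had the highest level of the 6 paralogs at both times in footprints and mRNA, and RPL22L1 and RPL39L had the lowest in mRNA. At 36 h the mRNA of RPL36AL averaged 658.3 CPM per kb ± 27.9 (SD, n = 5), followed by RPS27L at 367.9 ± 23.7, RPL7L1 at 301.5 ± 14.4 and RPL26L1 at 118.9 ± 9.16. The ranges of these 4 did not overlap. RPL22L1 at 40.2 ± 4.97 and RPL39L at 37.6 ± 6.81 overlapped. At 72 h RPL36AL (483.8 ± 35.1, n = 4), RPL7L1 (321.3 ± 23.3), RPS27L (234.8 ± 24.7) and RPL26L1 (141.1 ± 14.3) again stood apart, while RPL22L1 (36.0 ± 10.6) and RPL39L (29.9 ± 6.40) overlapped. RPS27L and RPL7L1 thus stood in opposite order at the 2 times. The times, however, differ in the kind of guide, in aligner and in annotation, and the transcripts kept for RPS27L and for RPL7L1 differ between them. In footprints at 36 h each neighbour in the order overlapped the next. At 72 h the footprint order was RPL36AL (473.4 ± 80.2, n = 4), RPL7L1 (325.3 ± 21.3), RPS27L (251.9 ± 24.8), RPL26L1 (216.2 ± 13.8), RPL39L (190.4 ± 27.0) and RPL22L1 (19.0 ± 4.85). RPS27L overlapped RPL26L1, and RPL26L1 overlapped RPL39L, in that order.

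**Figure D1:**
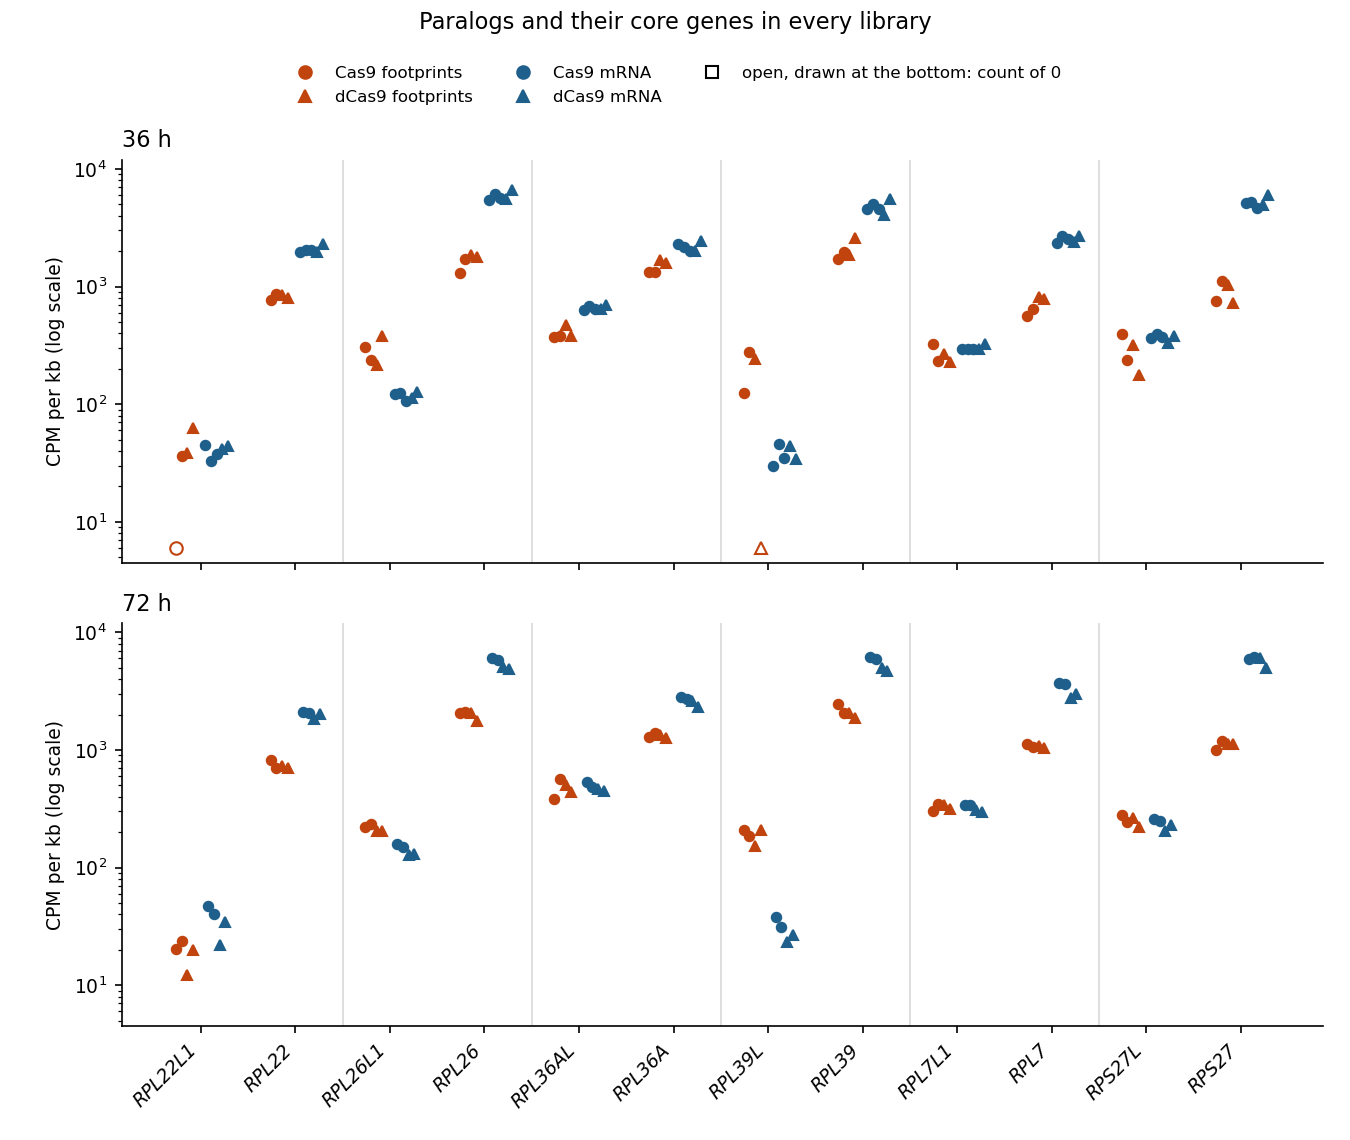
Level of each paralog and of its core gene in every library at 36 h (top) and 72 h (bottom), in CPM per kb of counted coding length on a log axis. Circles are Cas9 and triangles dCas9 libraries, footprints are orange-red and mRNA blue, and open symbols at the bottom mark counts of 0. The mRNA of each core gene lies above the mRNA of its paralog in all libraries. The gap is narrower in footprints for RPL26L1, RPL7L1 and RPS27L, and for RPL39L except where its count is 0. It is also narrower at 36 h for RPL22L1, except where its count is 0, and at 72 h for RPL36AL.

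The core genes stood far above their paralogs in mRNA. RPL22 averaged 2056 CPM per kb ± 132.5 (SD, n = 5) in mRNA at 36 h, RPL26 5879 ± 491.9, RPL36A 2184 ± 190.4, RPL39 4778 ± 563.4, RPL7 2537 ± 171.8 and RPS27 5167 ± 485.6. As a share of the core gene's reads per codon in the same library, the mRNA of RPL39L was lowest, from 0.610% to 1.07% at 36 h and from 0.467% to 0.619% at 72 h. RPL22L1 mRNA ran from 1.61% to 2.31% of RPL22 at 36 h and from 1.20% to 2.23% at 72 h. RPL26L1 mRNA was at 1.86% to 2.26% and at 2.51% to 2.67% of RPL26. RPL36AL reached the largest share, 27.6% to 32.0% of RPL36A at 36 h and 18.1% to 19.1% at 72 h.

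RPL26L1, a low-abundance mRNA with many footprints, had no count of 0 in any library. At 36 h its mRNA read 123.1, 125.4 and 106.1 CPM per kb in Cas9 replicates a, b and c and 112.6 and 127.5 in dCas9 replicates d and e, while its footprints read 303.7 and 237.6 in Cas9 a and c and 214.6 and 377.6 in dCas9 d and e. At 72 h mRNA read 157.3 and 148.8 in Cas9 a and b and 127.6 and 130.5 in dCas9 a and b, and footprints 222.6 and 232.6 in Cas9 e and f and 204.2 and 205.2 in dCas9 e and f. Every footprint library lay above every mRNA library at both times. Its core gene RPL26 went the other way, with footprints of 1310 to 1852 against mRNA of 5443 to 6623 CPM per kb at 36 h. The ratio of RPL26L1 to RPL26 was therefore higher in footprints, 11.6% to 23.2% of RPL26 at 36 h and 9.93% to 11.5% at 72 h.

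RPS27L and RPL7L1 had overlapping levels in footprints and mRNA at 72 h, while their core genes RPS27 and RPL7 had far lower levels in footprints. RPS27L footprints at 36 h read 395.4 and 238.8 CPM per kb in Cas9 a and c and 318.5 and 176.0 in dCas9 d and e, on 66, 107, 288 and 21 reads. RPS27L mRNA read 365.7, 396.1 and 369.4 in Cas9 and 331.1 and 377.3 in dCas9, so the footprint values spread on both sides of the mRNA values. RPL7L1 footprints at 36 h read 324.0 and 234.4 in Cas9 and 267.5 and 227.8 in dCas9, and its mRNA 294.0 to 327.1. At 72 h footprints ran from 221.4 to 279.4 and mRNA from 203.4 to 259.96 for RPS27L, and from 300.1 to 345.5 and from 294.2 to 343.4 for RPL7L1. RPS27 by contrast averaged 1114 CPM per kb ± 83.0 (SD, n = 4) in footprints and 5781 ± 532.7 in mRNA at 72 h. In footprints RPS27L reached 21.4% to 52.4% of RPS27 at 36 h and 19.7% to 27.9% at 72 h, and RPL7L1 28.8% to 57.2% and 26.5% to 32.5% of RPL7.

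RPL39L had a low mRNA level and, except where its count was 0, a higher footprint level. Among the paralogs RPL39L still had a mean footprint level above only that of RPL22L1 at both times. Its footprint counts at 36 h were 10 and 60 in Cas9 a and c and 107 and 0 in dCas9 d and e, and at 72 h 61 and 101 in Cas9 and 94 and 169 in dCas9. Its mRNA counts were 91 to 110 at 36 h and 81 to 132 at 72 h, in libraries several times deeper. The count of 0 allows up to 3 reads, or 51.9 CPM per kb, for counting error only. Where present, RPL39L footprints were at most 14.1% of RPL39 at 36 h and between 7.38% and 11.1% at 72 h. The share of RPL39 windows of footprint length that also fit RPL39L was 12.1% over the whole frame of 51 codons, close to these values. Footprints were counted in only 31 codons at 36 h and 32 at 72 h, so these shares cover unlike stretches. The part of misplaced RPL39 footprints in RPL39L was not tested.

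RPL22L1 and RPL36AL completed the set. RPL22L1 had the fewest footprints, with counts of 0 and 26 in Cas9 a and c and 55 and 12 in dCas9 d and e at 36 h, and of 19 and 41 in Cas9 and 24 and 51 in dCas9 at 72 h. For the count of 0 up to 3 reads, or 11.3 CPM per kb, were allowed. RPL36AL footprints read 374.5 and 380.2 CPM per kb in Cas9 and 468.3 and 380.4 in dCas9 at 36 h, below all of its mRNA values of 631.4 to 697.4. At 72 h they read 382.0 and 568.0 in Cas9 and 503.3 and 440.1 in dCas9, on both sides of mRNA values between 447.4 and 530.0.

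The ratio of paralog to core gene was then compared between footprint and mRNA libraries, Cas9 and dCas9 together, with an exact two-sided permutation test for each of the 6 pairs at each time, unadjusted over the 6 tests. The ratio is within a library, so it needs no scaling between libraries, and 0.5 was added to both counts. With 4 footprint and 5 mRNA libraries the smallest p possible was 0.0159 at 36 h, and with 4 of each it was 0.0286 at 72 h. At 36 h 3 of 6 pairs passed p of 0.05, and at 72 h 5 of 6. How often other genes pass against these core genes was not tested. The ratio also moves with the core gene, so these counts describe pairs and not paralogs. In dCas9 footprints against mRNA the median log2 value of the core ribosomal protein genes was -0.81 at 36 h and -0.79 at 72 h. For all tested genes it was -0.014 and -0.055. The test treats the libraries as independent, although the study divided lysates between footprints and mRNA. At 36 h 4 letters occur in both kinds of library, and each was taken to mark a lysate. Within those 4 lysates the smallest possible p is 0.125, so that no pair could pass. As a replicate block chosen after seeing the data, the lysates gave mean differences of 3.06 (SE 0.22) for RPL26L1, 2.11 (SE 0.30) for RPS27L and 1.62 (SE 0.20) for RPL7L1, each higher in footprints in 4 of 4 lysates (exact sign-flip p = 0.125). RPL39L (2.62, SE 1.18) and RPL22L1 (0.29, SE 1.20) were higher in 3 of 4 and RPL36AL (-0.14, SE 0.063) in 1 of 4. At 72 h footprints and mRNA carry different letters, and which libraries share a lysate is not given in the sources used here.

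At 36 h the log2 ratio of RPL26L1 to RPL26 was -2.57 ± 0.48 (SD, n = 4) in footprints and -5.63 ± 0.11 (n = 5) in mRNA. That is a difference of 3.06 (SE 0.22), or 8.32-fold, with exact p = 0.0159, the smallest possible. RPS27L to RPS27 differed by 2.09 (SE 0.26) and RPL7L1 to RPL7 by 1.66 (SE 0.19), each with exact p = 0.0159. RPL39L to RPL39 differed by 2.57 with an SE of 1.14, and the library without RPL39L footprints overlapped the mRNA values (exact p = 0.0952). Without that library, dCas9 footprint replicate e, the difference was 3.84 (exact p = 0.0357), and in dCas9 libraries alone it was 1.37. RPL22L1 to RPL22 differed by 0.36 (SE 1.00, exact p = 0.778), again with 1 footprint library at 0. Without that library, Cas9 footprint replicate a, it was 1.48 (exact p = 0.0357), and without dCas9 footprint replicate e it was -0.21. RPL36AL to RPL36A differed by -0.15 (SE 0.073, exact p = 0.143), the only pair with a lower ratio in footprints.

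At 72 h, with deeper footprint libraries, the largest difference was that of RPL39L to RPL39. Its log2 ratio was -3.48 ± 0.25 (SD, n = 4) in footprints and -7.52 ± 0.17 (n = 4) in mRNA, a difference of 4.04 (SE 0.15) or 16.4-fold (exact p = 0.0286, the smallest possible). RPS27L to RPS27 differed by 2.48 (SE 0.15), RPL26L1 to RPL26 by 2.07 (SE 0.049), RPL7L1 to RPL7 by 1.61 (SE 0.093) and RPL36AL to RPL36A by 0.93 (SE 0.10), each with exact p = 0.0286 and with footprint and mRNA libraries apart. RPL22L1 to RPL22 differed by 0.55 (SE 0.29), and its libraries overlapped (exact p = 0.143). The transcript kept for RPL36A differs between the times, with 86 counted codons at 36 h and 123 at 72 h, and with the 36 h transcripts the 72 h difference of RPL36AL to RPL36A was 1.27. RPL36A also shares its sequence with the read-through gene RPL36A-HNRNPH2, whose reads could not be told apart from its own.

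**Figure D2:**
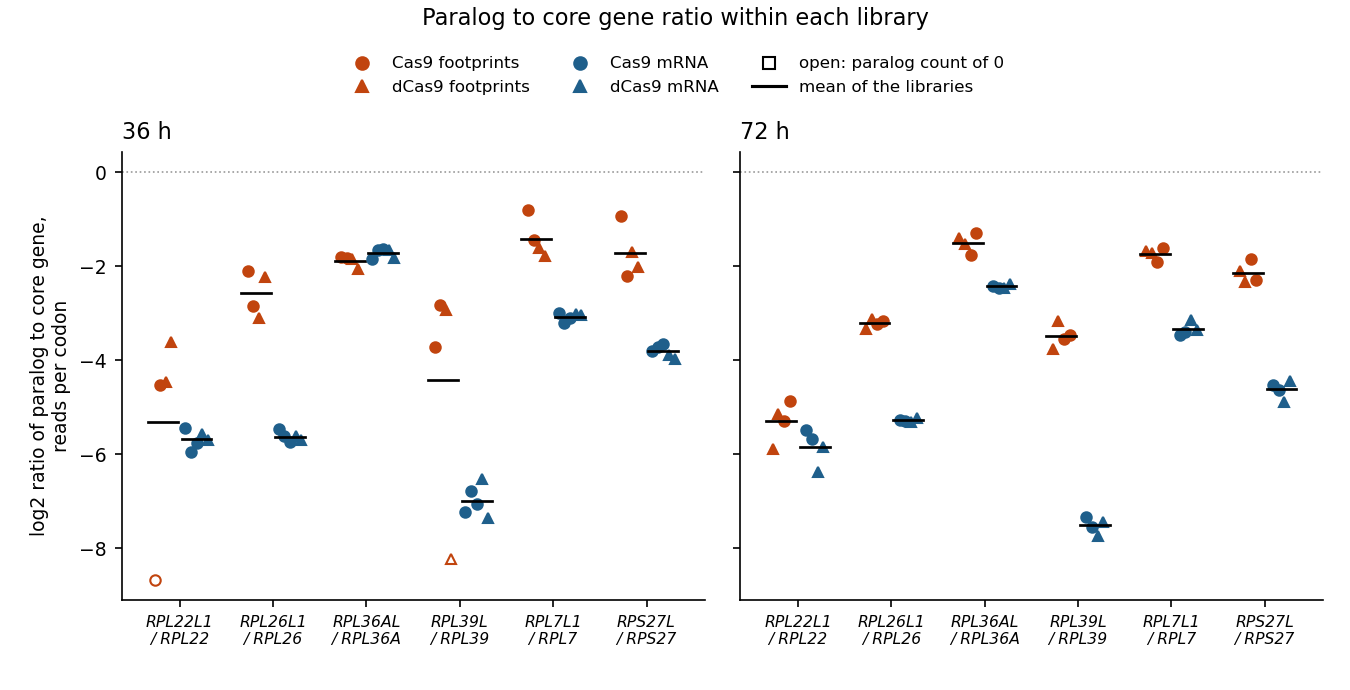
Log2 ratio of each paralog to its core gene in reads per codon, 1 point per library, at 36 h (left) and 72 h (right). Orange-red points are footprints, blue points mRNA, circles Cas9, triangles dCas9 and black lines the mean of the libraries. Footprint points of RPL26L1, RPL7L1 and RPS27L lie above all their mRNA points at both times, while those of RPL22L1 overlap them.

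Footprints against mRNA were next set against all other tested genes in dCas9 cells, to give each paralog its footprints per mRNA. In edgeR's quasi-likelihood test at a false discovery rate of 0.1, 3 of the 6 paralogs passed at each time, where 48.2% of 9017 tested genes passed at 36 h (23.6% higher and 24.6% lower in footprints) and 70.6% of 10896 at 72 h (32.7% higher and 37.8% lower). The paralogs' count was thus near the background at 36 h and below it at 72 h. RPL26L1 had more footprints per mRNA at both times, with a log2 value of 1.20 at 36 h (SE 0.25, adjusted p = 0.0014) and of 0.67 at 72 h (SE 0.11, adjusted p = 8.6e-05). RPL39L stood at 2.08 (SE 0.68, adjusted p = 0.0245) at 36 h and at 2.86 (SE 0.23, adjusted p = 2.6e-08) at 72 h. At 36 h this rested on 107 reads in dCas9 replicate d, since replicate e had 0. With the shared lysate letter as a replicate block the 36 h value was 1.35 (SE 1.02, adjusted p = 0.358) and did not pass. Without footprint replicate d the fitted value was -9.11 (adjusted p = 0.206), and leaving out either dCas9 mRNA library raised the adjusted p to 0.104 or 0.169.

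RPL36AL passed as lower in footprints at 36 h (-0.61, SE 0.15, adjusted p = 0.005), and its value at 72 h was 0.040 (SE 0.14, adjusted p = 0.817). RPL22L1 passed as lower at 72 h (-0.80, SE 0.28, adjusted p = 0.02), and was at 0.087 (SE 0.57) at 36 h. Without dCas9 mRNA replicate b or without dCas9 footprint replicate e the adjusted p of RPL22L1 at 72 h was 0.198 or 0.192. RPL7L1 (-0.30 at 36 h and 0.12 at 72 h) and RPS27L (-0.37 and 0.16) did not pass.

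All 6 core partners passed as lower in footprints at both times, from -0.45 for RPL36A to -2.55 for RPS27 at 36 h and from -0.92 for RPL36A to -2.29 for RPS27 at 72 h. Among the 76 tested genes of the study's list of 79 core ribosomal protein genes, 55 passed as lower at each time, and 7 passed as higher at 36 h and 10 at 72 h. The median of the list was -0.81 at 36 h and -0.79 at 72 h, against -0.014 and -0.055 for all tested genes. RPS2, RPS6 and RPL4 had the smallest adjusted p at 36 h and RPS12, RPS27 and RPS6 at 72 h. RPL39L lay above all 76 core genes at both times. RPL26L1 lay above 75 of 76 at 36 h and 72 of 76 at 72 h. RPL22L1 stood above 65 core genes at 36 h but above 37 at 72 h, near the middle of the list.

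**Figure D3:**
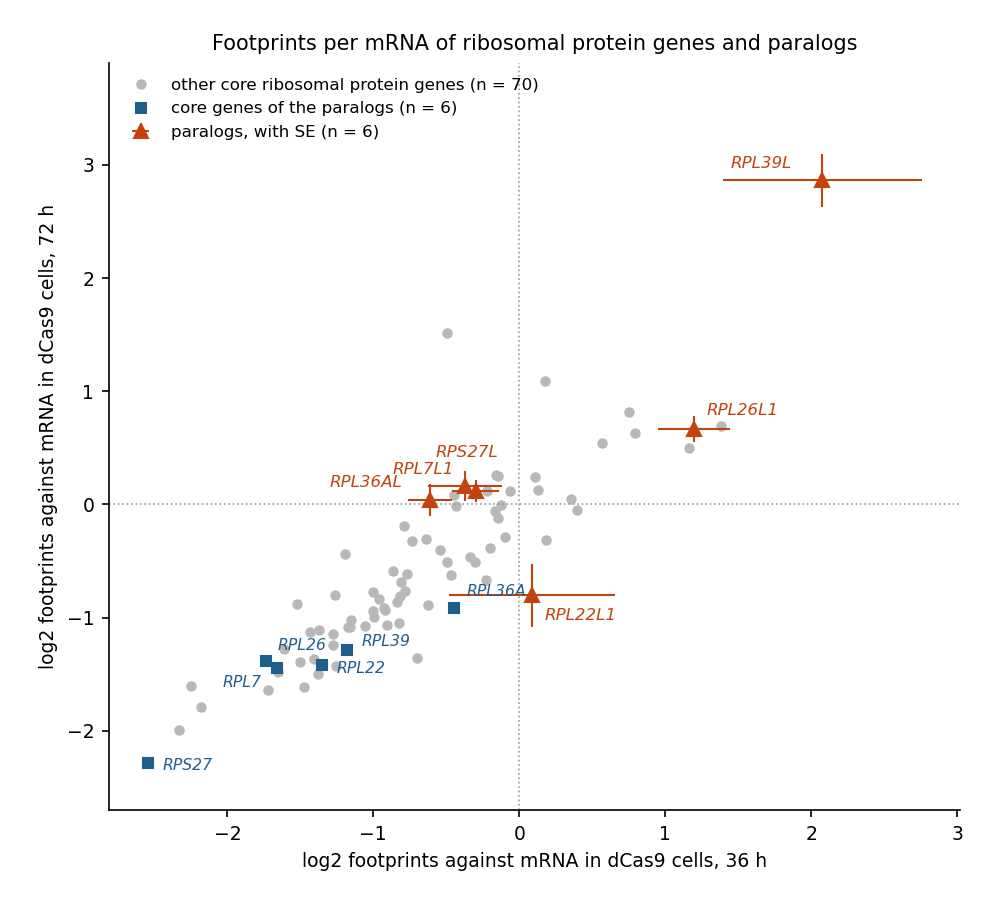
Log2 footprints against mRNA in dCas9 cells at 36 h (x axis) and 72 h (y axis) for the 6 paralogs (orange-red triangles, bars SE), their 6 core genes (blue squares) and the 70 other tested core ribosomal protein genes (grey). RPL39L stands at 2.08 and 2.86, above all core genes, and the 6 core partners lie below 0 on both axes.

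Whether DNA cutting changed the paralogs was asked by comparing Cas9 with dCas9 in each kind of library. At 36 h none of the 6 paralogs passed edgeR's test in footprints, in mRNA or in translational efficiency, the difference between both, and 0% of the 9017 tested genes passed in any of the 3. None of the paralogs had an unadjusted p under 0.05, and DESeq2 called none, while over all genes 863 in footprints, 26 in mRNA and 568 in translational efficiency had an unadjusted p under 0.05 and DESeq2 called 46, 0 and 1. RPL22L1 had the largest footprint difference (-0.94, SE 0.68, adjusted p = 0.689), with 0 and 36.4 CPM per kb in the Cas9 libraries against 38.2 and 63.1 in dCas9. The 0 came from the library with 957937 reads in the kept transcripts. RPL39L was at 0.37 (SE 0.71), RPS27L at 0.14 (SE 0.29), RPL7L1 at 0.12 (SE 0.17), RPL26L1 at -0.051 (SE 0.26) and RPL36AL at -0.21 (SE 0.17). The median of the 6 was 0.032, and that of the 76 core genes -0.026. In mRNA the 6 paralogs ran from -0.15 for RPL22L1 to 0.090 for RPS27L. Of the core partners, RPL7 had the largest footprint difference (-0.41, SE 0.12, adjusted p = 0.401).

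At 72 h 0 of 6 paralogs and 0% of the 10896 tested genes passed edgeR's test in footprints (of all genes, 396 with an unadjusted p under 0.05, and 0 called by DESeq2). In mRNA 0 of 6 passed, where 5.64% of tested genes did, and in translational efficiency 0 of 6, where 0.716% did. The paralogs nevertheless lay on the same side in mRNA. In each of the 6 both Cas9 mRNA libraries read above both dCas9 libraries, as in 23.8% of tested genes, and in 5 of the 6 core partners. RPL22L1 read 47.1 and 40.2 CPM per kb in Cas9 a and b against 21.99 and 34.7 in dCas9 a and b, a difference of 0.62 (SE 0.22, adjusted p = 0.157), the largest of the 6. RPL39L read 38.0 and 31.4 against 23.2 and 26.8 (0.47, SE 0.23, adjusted p = 0.31). RPL26L1 was at 0.25 (SE 0.11), RPS27L at 0.23 (SE 0.12), RPL7L1 at 0.17 (SE 0.098) and RPL36AL at 0.15 (SE 0.14). Of the 6, RPL22L1 and RPL26L1 had an unadjusted p under 0.05, and DESeq2 called none. Over all 10896 tested genes, 1856 had an unadjusted p under 0.05 in mRNA, and DESeq2 called 831.

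Base composition moved with the mRNA values at 72 h. Over 10856 genes the rank correlation of GC content with the log2 difference was -0.41, given as a description across genes that share libraries. RPL22L1 had a GC content of 40.4%, below all but 7.53% of genes, and RPS27L of 40.3%, against a median of 51.7%. With GC content as an offset, RPL22L1 (0.46, adjusted p = 0.0824) and RPL26L1 (0.28, adjusted p = 0.0763) passed, against differences of 0.62 and 0.25 without it. Over all 10896 tested genes 1419 passed with the offset, 528 of them as higher, against 615 and 47 without it. Without dCas9 mRNA replicate b RPL22L1 was at 0.93 (adjusted p = 0.0135) and passed, with 2472 of all tested genes called. Of the core partners RPL7 (0.35, SE 0.081, adjusted p = 0.0235) and RPL39 (0.32, SE 0.098, adjusted p = 0.0962) passed as higher in mRNA. With the GC offset RPL7 passed, while RPL39 at 0.19 (adjusted p = 0.185) did not. RPL39 also did not pass with DESeq2's size factors (adjusted p = 0.11), with the mRNA libraries fitted alone (0.214), or without Cas9 mRNA replicate a (0.777) or b (0.211), dCas9 mRNA replicate b (0.152), dCas9 footprint replicate e (0.181) or f (0.182), or Cas9 footprint replicate f (0.1003), so its call rested on the setting. RPL7 did not pass with the mRNA libraries fitted alone (adjusted p = 0.128) or without Cas9 mRNA replicate a (0.417). In the core list 13 of 76 passed as higher and 7 as lower, where 0.431% of all tested genes passed as higher and 5.21% as lower, and the list had a median of 0.19 against 0.24 for the 6 paralogs and 0.017 for all tested genes. RPS16, RPLP1 and RPL28 had the smallest adjusted p in the core list, in mRNA as lower and in translational efficiency as higher.

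**Figure D4:**
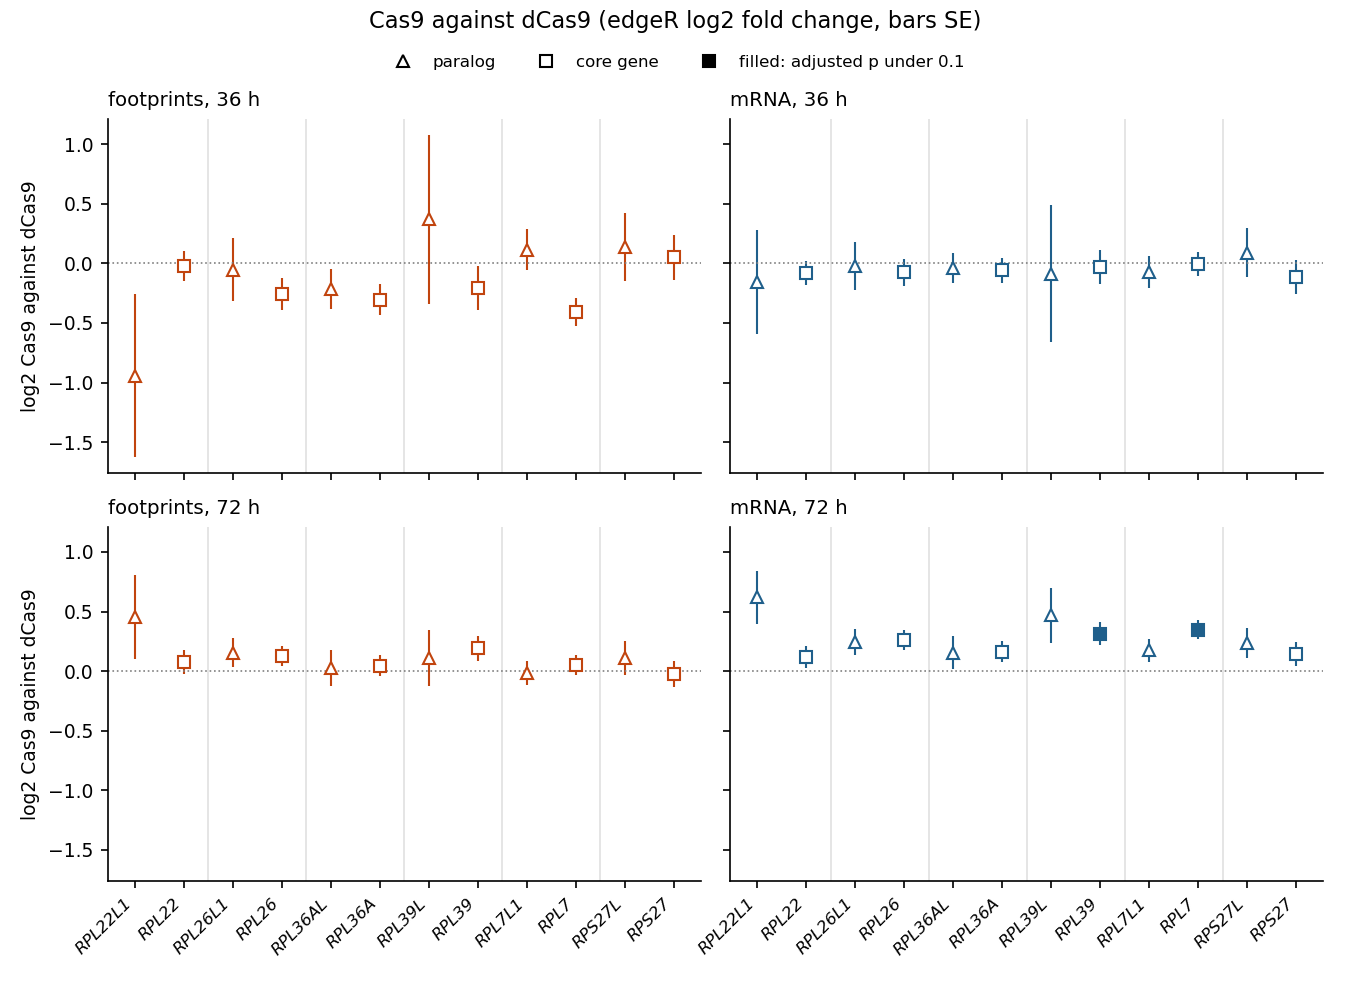
Log2 difference between Cas9 and dCas9 libraries with its SE for the 6 paralogs (triangles) and their core genes (squares), in footprints (left, orange-red) and mRNA (right, blue) at 36 h (top) and 72 h (bottom). Filled symbols passed an adjusted p of 0.1. Only RPL39 and RPL7 in mRNA at 72 h are filled, and RPL22L1 in footprints at 36 h has the lowest value, -0.94.

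The balance between paralog and core gene was also compared between Cas9 and dCas9. These comparisons of 2 with 2 or 3 with 2 libraries could not reach p of 0.05, and the smallest possible exact two-sided p was 0.333 or 0.2. At 36 h in footprints both Cas9 libraries stood apart from both dCas9 libraries for 3 pairs, each with exact p = 0.333, the smallest possible. Such a split was common in the footprint levels of single genes, where 1473 of 9017 tested genes lay above and 1266 below. How often ratios of other genes stand apart was not tested. RPL7L1 to RPL7 was higher in Cas9 by 0.57 on the log2 scale (SE 0.34) and RPL36AL to RPL36A by 0.14 (SE 0.11), while the difference of RPL22L1 to RPL22 was -2.57 (SE 2.11). RPL39L to RPL39 differed by 2.31 (SE 2.69), RPS27L to RPS27 by 0.29 (SE 0.67) and RPL26L1 to RPL26 by 0.20 (SE 0.57), with overlapping libraries. The values of RPL22L1 and RPL39L each rest on 1 library with a count of 0. In mRNA at 36 h RPS27L to RPS27 differed by 0.20 (SE 0.065), with all 3 Cas9 libraries above both dCas9 libraries (exact p = 0.2, the smallest possible). For the mRNA levels of single genes, 8.43% of tested genes lay above in this way and 8.48% below. At 72 h RPL22L1 to RPL22 in mRNA differed by 0.54 (SE 0.28), and RPL7L1 to RPL7 by -0.17 (SE 0.11). In footprints at 72 h RPL22L1 to RPL22 differed by 0.43 (SE 0.43), with overlapping libraries. The remaining pairs at 72 h differed by at most 0.15 in either kind of library, and RPL26L1 to RPL26 by -0.017 in mRNA and 0.024 in footprints.

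Genes that share a pathway with the paralogs were described from lists. Of 16 p53 targets, the class to which RPS27L belongs, 15 were tested and 0 passed between Cas9 and dCas9 in any comparison at either time. Their median in mRNA was 0.0062 at 36 h and 0.066 at 72 h, where RPS27L was at 0.090 and 0.23. In dCas9 footprints against mRNA 6 p53 targets passed as higher and 2 as lower at 36 h, and 8 and 4 at 72 h. Together that is 8 and 12 of the 15, beside 48.2% and 70.6% of all tested genes. GADD45A was at 1.53 and 1.41 and BTG2 at 1.65 at both times, while XPC was at -1.45 at 36 h and MDM2, the p53 ligase, at -1.42 at 72 h. Of 15 assembly factors of the early large subunit, the class Rlp7 belongs to, 15 were tested and 0 passed between Cas9 and dCas9. In footprints against mRNA 1 passed as higher and 3 as lower at 36 h, and 5 and 2 at 72 h, among them RSL1D1 (-0.61 and -0.46) and BOP1 (0.48 and 0.46). These 4 and 7 of 15 stand beside the same shares of 48.2% and 70.6%. EBNA1BP2 passed at 36 h (-0.80) and MAK16 at 72 h (-0.97). RPL3L and RPL10L, paralogs known from muscle and testis, had too few reads for a test.

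Across all 17 libraries, after the mean of each time and library type was taken away, the likeness of a paralog to its core gene ran from positive to negative. Pearson's r of log2 CPM with the core gene was 0.61 for RPL36AL, which ranked RPL36A as the 62nd most alike of 8971 genes. It was 0.36 for RPL22L1, 0.11 for RPL26L1, 0.068 for RPS27L, -0.14 for RPL7L1 and -0.53 for RPL39L. The genes most like each paralog were FAM185A and MLH3 for RPL22L1 (0.99 each), CDKAL1 and CLPTM1L for RPL26L1 (0.93 and 0.92), and BTBD6 and HLCS for RPL36AL (0.80 and 0.78). They were LDAH and LYRM2 for RPL39L (0.996 and 0.994), RBM3 and NDUFB1 for RPL7L1 (0.91 each), and GDE1 and NDC1 for RPS27L (0.95 each). The points share libraries and depth, and for RPL22L1 and RPL39L the footprint library with a count of 0 lies far from the others.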

How the data were processed

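Ribosome footprints and mRNA of 17 libraries were used. Per the methods the authors trimmed the reads, aligned them with hisat2 at 36 h and tophat at 72 h, and ran fp-count (the submitters' notes name HISAT2 2.1.0). Deposited were raw counts for every transcript. Transcripts were matched to genes of GENCODE release 44 on hg38, RPS27 through a transcript the study itself lists, and of each gene the transcript with the most reads at that time was kept. Each time was fitted in edgeR 4.0.16 (R 4.3.3) with a mean for each nuclease and library type, TMM scaling, the quasi-likelihood test and Benjamini-Hochberg adjustment at 0.1 over all genes whose mean count reached 20 in footprints and 20 in mRNA (9017 at 36 h, 10896 at 72 h). Standard errors came from the fold change and the F statistic. DESeq2 1.42.0 was an alternative. Permutation tests used scipy. Scripts were tested on simulated counts. The members and lists were chosen with earlier results of these data known. Named were the 12 genes, up to 3 called genes of each list and the 2 genes most like each paralog. The study divided lysates between footprints and mRNA, and at 36 h a letter shared by both was taken to mark a lysate. The titles give the letters alone. Deviations of libraries with the same letter had correlations of 0.01 to 0.08. Replicates share a cell line, so p-values of Cas9 against dCas9 measure the spread between plates. Those of footprints against mRNA compare 2 kinds of library, at 36 h in part taken to share lysates.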

Additional observations from a re-analysis of the deposited data

Results flagged for a closer look

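RPL22L1 footprints differed in direction between the times. At 36 h both Cas9 libraries lay below both dCas9 libraries, with a log2 difference of -0.94 (SE 0.68), and at 72 h both lay above, with 0.46 (SE 0.35). Neither passed edgeR's test, and the difference between the times was not tested. The counts were 0, 26, 55 and 12 at 36 h and 19, 41, 24 and 51 at 72 h, in the order Cas9 then dCas9. Footprint libraries that stand apart were common among all genes. At 36 h 1266 of 9017 tested genes lay below in this way, with 2 of the 6 paralogs among them. At 72 h 1744 of 10896 lay above, again with 2 of the 6 paralogs. How many genes changed sides between the times was not tested. The times also differ in the kind of guide, in aligner and in annotation, which cannot be told apart from time.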

How the results depend on the processing

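The number of paralogs called between Cas9 and dCas9 was 0 as reported and also with DESeq2's size factors and with DESeq2. In mRNA at 72 h it was 1 without a count minimum (RPL22L1), 2 with GC content as an offset (RPL22L1 and RPL26L1), and 2 with each paralog and core gene summed. These 2 were the sums of RPL7L1 with RPL7 and of RPL39L with RPL39, whose core genes passed alone as reported, RPL39 not with the GC offset. Over all genes in mRNA at 72 h, 885 of 17023 were called without a count minimum, 1419 of 10896 with the GC offset and 614 of 10890 with the sums. Leaving out a library gave 0 to 1 called there and in footprints and translational efficiency at 36 h, and 0 elsewhere. The call at 36 h was RPL22L1 without Cas9 footprints c and RPL39L without dCas9 footprints d, where a lone library with a count of 0 was left, so the fitted fold has no meaning. With the letter within library type as a replicate block at 72 h, 0 paralogs were called. The letters there share only a number, with same-letter correlations of -0.15 in mRNA and 0.02 in footprints. With the mRNA letters crossed, chosen after seeing the data, 1 paralog and 1133 genes were called in mRNA, against 615 without a block and 533 with it. In dCas9 footprints against mRNA 2 to 4 paralogs were called without 1 library at each time, and 2 with the lysate letter as replicate block at 36 h. RPL39L at 36 h ran from -9.11 to 2.65 when a library was left out. The median Cas9 to dCas9 difference of the 6 paralog to core ratios in footprints was 0.24 at 36 h (-0.021 to 0.73 without 1 library) and -0.0096 at 72 h (-0.042 to 0.083), and in mRNA -0.025 at 36 h (-0.074 to 0.094) and 0.038 at 72 h (-0.06 to 0.16). The footprint to mRNA difference of the ratio kept its sign for 5 of 6 pairs at 36 h and 6 of 6 at 72 h under 11 and 10 settings, of which the lysate pairing at 36 h and the 36 h transcripts at 72 h were chosen after seeing the data. Settings that change only the codon number cancel in this difference and are not counted. The exception was RPL22L1 at 36 h (-0.21 to 1.59), and RPL39L at 36 h ran from 1.37 to 3.84. Between 3 and 4 pairs passed without 1 library at 36 h, and at 72 h such a comparison of 3 with 4 cannot pass. Depth limits RPL22L1 and RPL39L footprints most.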
